A study of Mus musculus with 24 samples.

Results

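The genes described here are 35 transcripts known as products of the liver that were seen in mouse oesophagus with reflux. They were picked by name from 28104 gene names on the array, with the reflux results of these arrays in view. Of the 35, 25 encode secreted plasma proteins and 10 encode proteins that stay inside the hepatocyte, mostly enzymes. The level in reflux samples against samples without reflux therefore chose the genes, and those differences are given as descriptions, with no test. The genotype comparisons, the spread between arrays and the genes outside the list are measures the choice did not rest on directly.

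The study hybridised RNA from the oesophagus of wild-type C57BL/6J mice and of Nrf2-/- mice on 24 Agilent 2-colour arrays, 3 for each of 8 groups. Nrf2, encoded by Nfe2l2, is the transcription factor that drives antioxidant and detoxification genes. All mice were labelled male and 12 weeks old, and in each genotype there was a group with no reflux, one with gastric reflux (stomach contents), one with duodenal reflux (bile and pancreatic juice) and one with mixed reflux, kept for 4 weeks. Nrf2-/- mice lack the factor in every tissue, the liver included, not only in the oesophagus. The tissue was labelled whole oesophagus in 7 groups and oesophageal epithelium in the Nrf2-/- mixed reflux group, while the source name of every sample says epithelium. Each sample was labelled with Cy5 and set against a Cy3 reference made of RNA from 11 mouse cell lines, and no dye swap was made, so every value is a log2 ratio of oesophagus to that reference.

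The liver makes most plasma proteins: hepatocytes secrete albumin, clotting factors, apolipoproteins and protease inhibitors, and their transcription is held on by a small set of liver-enriched factors of the HNF1, HNF4, FOXA and C/EBP families. Intracellular enzymes of urea formation, amino acid breakdown and drug oxidation mark the same cells without being secreted. Squamous oesophageal epithelium is not known as a source of either group, although some members have other sites: Arg1 is made in keratinocytes and macrophages, Hp in inflamed tissue and fat, and Fabp1 in the intestine.

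Promoter sequences are shown for 6 members whose levels carry the results below, to let the liver factor motifs be seen beside the values. The motifs were GTTAAT (the core of HNF1 sites), TTGCNNAA (C/EBP) and TGTTTGC (FOXA), searched on both strands, and letters that match any of them are in capitals; in Fabp1 the TGTTTGC and TTGCNNAA matches overlap. Each run is the 180 bases before the gene's start, read 5′ to 3′ on the gene's strand, from RefSeq on GRCm38.p6: Alb at chr5:90460690-90460869 (plus strand), Fgb at chr3:83049864-83050043 (minus), Serpina1b at chr12:103738190-103738369 (minus), Ces3b at chr8:105083575-105083754 (plus), Fabp1 at chr6:71199699-71199878 (plus) and Uox at chr3:146596969-146597148 (plus).
Alb: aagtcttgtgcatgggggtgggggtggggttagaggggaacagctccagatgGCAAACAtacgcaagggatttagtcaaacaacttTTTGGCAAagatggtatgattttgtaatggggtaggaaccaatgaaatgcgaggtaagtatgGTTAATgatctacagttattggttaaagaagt
Fgb: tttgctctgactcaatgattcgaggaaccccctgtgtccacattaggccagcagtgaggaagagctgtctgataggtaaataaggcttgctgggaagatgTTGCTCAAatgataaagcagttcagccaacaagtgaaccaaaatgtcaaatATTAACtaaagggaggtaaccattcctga
Serpina1b: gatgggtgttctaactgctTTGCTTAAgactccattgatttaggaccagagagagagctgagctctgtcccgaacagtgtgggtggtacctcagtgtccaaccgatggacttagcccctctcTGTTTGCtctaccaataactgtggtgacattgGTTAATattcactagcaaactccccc
Ces3b: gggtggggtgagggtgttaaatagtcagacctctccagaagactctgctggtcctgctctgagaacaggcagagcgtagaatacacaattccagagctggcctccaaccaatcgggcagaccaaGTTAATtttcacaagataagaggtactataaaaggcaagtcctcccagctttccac
Fabp1: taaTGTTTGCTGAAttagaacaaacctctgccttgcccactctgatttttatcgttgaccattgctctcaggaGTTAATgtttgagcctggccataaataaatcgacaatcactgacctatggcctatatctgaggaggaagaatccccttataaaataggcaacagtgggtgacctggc
Uox: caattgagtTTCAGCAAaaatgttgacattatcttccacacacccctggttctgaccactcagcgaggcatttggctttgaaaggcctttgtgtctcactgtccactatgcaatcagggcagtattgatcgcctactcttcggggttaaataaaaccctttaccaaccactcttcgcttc

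RefSeq promoter windows of 300 bases (250 before the start) were matched for 26 of the 35 members, in 27 windows. GTTAAT was in 33.3% of the 27 member windows and in 7.1% of all 32851 windows, TTGCNNAA in 40.7% against 10.8%, and TGTTTGC in 25.9% against 5.07%. TATAAA was in 33.3% against 13.6%. Of 12 motifs searched, TGTTCT (37% against 19%), TTCNNNGAA (14.8% against 8.3%) and TGACNNNGC (22.2% against 12.4%) were also present, and 5 longer ones were in no member window, namely CAAAGTCCA, CAAAGTTCA, the palindromic HNF1 site in a shorter and a longer form, and the direct repeat bound by HNF4. A match is a run of letters and was not tied to binding in these samples. The Alb window printed above holds GTTAAT 32 bases before the start, and Fgb holds it 29 bases before, whereas Uox holds only TTGCNNAA of the 3.

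The targeted gene followed the labels: Nfe2l2 ratios were 1.45 to 2.18 on the 10 wild-type arrays where it was measured and -3.81 to -2.83 on the 12 Nrf2-/- arrays. The oesophageal keratin Krt4 was between 5.87 and 8.38 wherever it was measured. In Nrf2-/- gastric reflux replicate 2 the Y-linked Ddx3y was at -4.20 and not above background, against its male label, while the other 23 arrays lay between 0.16 and 1.48. The 3 arrays of Nrf2-/- mixed reflux differed among themselves less than the arrays of any other group (pairwise r 0.993 to 0.994 over all genes, against 0.711 to 0.987 in the 21 other pairs), so they were counted as 1 sample and the fit held 22 samples. Median raw Cy5 signal was lowest on wild-type no-reflux replicate 2, Nrf2-/- duodenal replicate 2 and Nrf2-/- gastric replicate 1 (81.8, 85.3 and 88.2 units, against up to 249). On both arrays of slide 1, which held wild-type no-reflux replicates 1 and 2, 11.8% and 12.96% of spots had been left out as outliers, against at most 0.66% elsewhere.

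The number of liver transcripts detected in the oesophagus differed between arrays, and their levels differed widely between arrays of the same group. Between 15 and 23 members were above background in the oesophageal channel on the 6 arrays without reflux, and between 23 and 34 on the 18 reflux arrays. Of all genes, 59.5% to 67.6% were above background on the arrays without reflux and 60.1% to 74.1% on the reflux arrays. In all, 21 members were above background on all 18 reflux arrays, 10 were so on all 6 arrays without reflux, and 9 on none of those 6. The shares of all genes with these detection patterns were not counted, so nothing is read from these counts. Alb was the only member of the 35 above background on every reflux array and on no array without reflux. For 6 members (Alb, Ahsg, Hp, Itih3, Fabp1 and Uox) every reflux array lay above every array without reflux where they were measured, a pattern that 0.0778% of the 20565 genes tested had. Since the members were chosen on that contrast, nothing is read from that share.

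**Figure D1:**
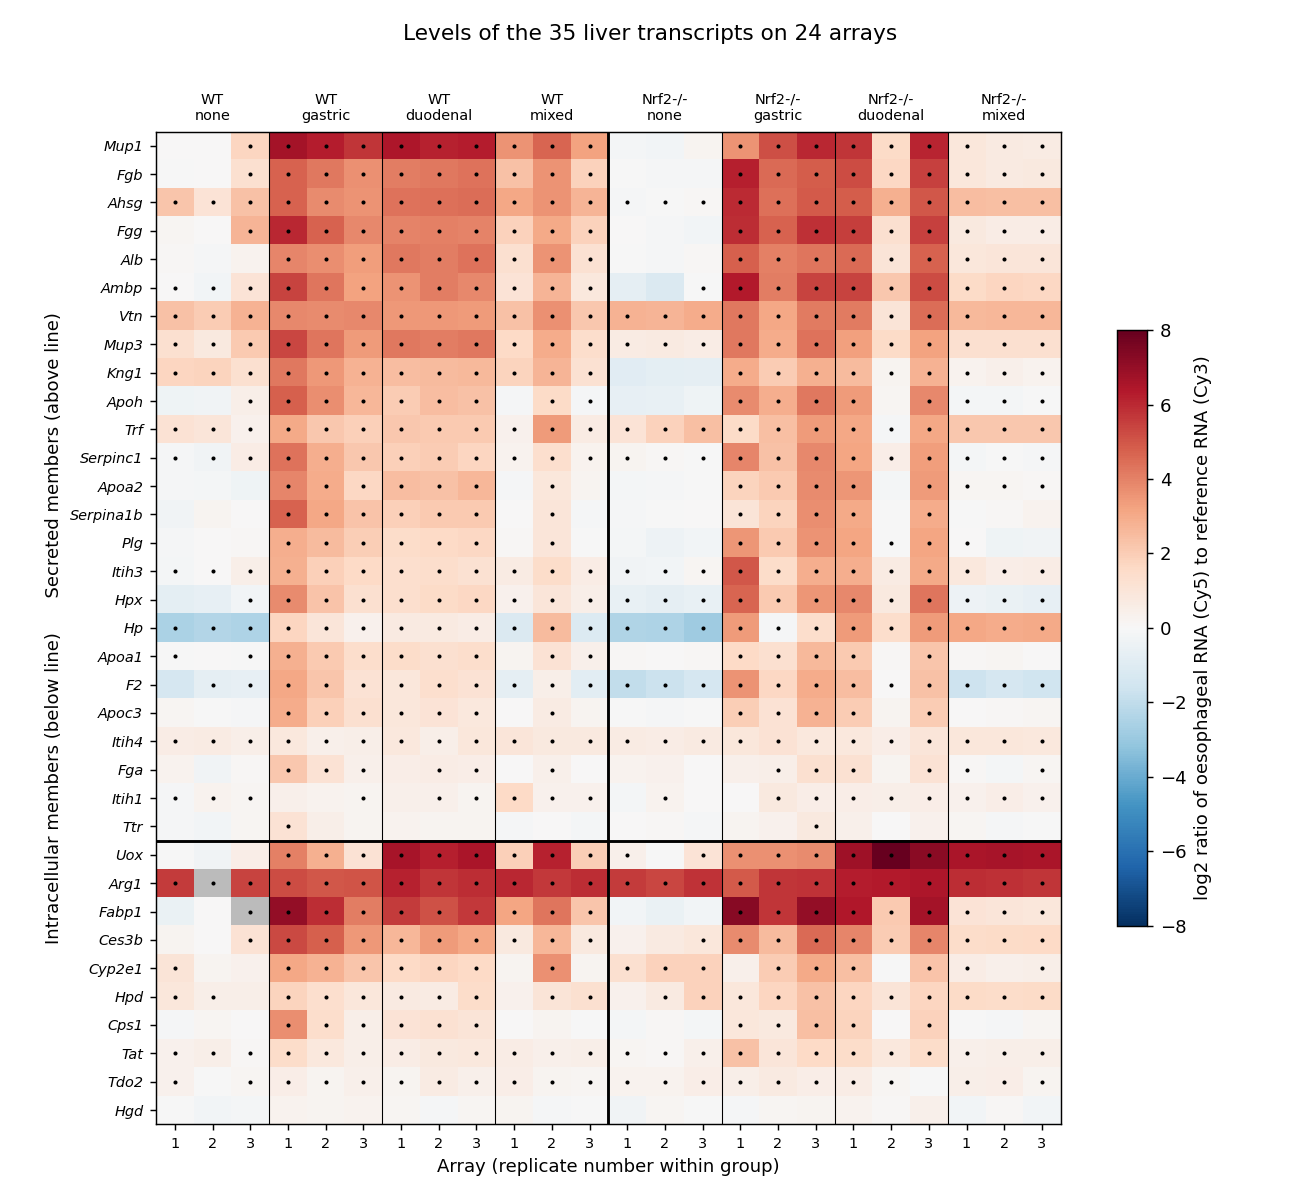
Colour gives the log2 ratio of oesophageal (Cy5) to reference (Cy3) RNA for each of the 35 members (vertical axis, secreted above the line and intracellular below) on each of the 24 arrays (horizontal axis, grouped by genotype and reflux); a dot marks a member well above background in Cy5 and grey a spot left out as an outlier. The columns of Nrf2-/- duodenal replicate 2, wild-type mixed replicates 1 and 3 and all of Nrf2-/- mixed reflux are paler for most members than those of the other reflux arrays, and Arg1 stays between 4.89 and 6.44 throughout.

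Albumin is the main protein of plasma. In wild-type mice the log2 ratio of Alb was 0.10, -0.06 and 0.26 on the 3 arrays without reflux, 3.88, 3.74 and 3.34 under gastric reflux, 4.23, 4.08 and 4.33 under duodenal reflux, and 1.30, 3.60 and 1.22 under mixed reflux. The Nrf2-/- values of Alb were -0.01, -0.09 and 0.11 without reflux, 4.75, 4.05 and 4.26 under gastric, 4.50, 1.03 and 4.73 under duodenal, and 0.89, 1.00 and 0.96 under mixed reflux. All gastric and wild-type duodenal arrays were high, wild-type mixed reflux had 1 high and 2 low arrays, and Nrf2-/- duodenal reflux had 2 high and 1 low. Without reflux no array had Alb well above background, so the level there is only an upper limit and no fold is given. The Cy5 signal alone differed by more than the ratio: wild-type Alb had a mean log2 Cy5 level of 12.56 under gastric reflux and 6.27 without, while the fitted difference of the log2 ratio was 3.56. Which of the measures lies nearer the change in RNA was not tested, and all differences below are of ratios unless Cy5 is named.

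Transthyretin, the carrier of thyroxine and retinol-binding protein, gave almost no signal. Ttr was above background on 2 of the 24 arrays, wild-type gastric replicate 1 (log2 ratio 1.19) and Nrf2-/- gastric replicate 3 (0.80), and lay between -0.20 and 0.46 on the others. It passed no filter on dim probes and was not tested. Transferrin, the iron carrier, was measured everywhere. Trf was 1.18, 0.94 and 0.33 in wild-type mice without reflux, 3.05, 2.13 and 1.89 under gastric, 2.14, 2.07 and 2.07 under duodenal and 0.32, 3.42 and 0.69 under mixed reflux. Its Nrf2-/- values were 1.10, 1.84 and 2.40 without reflux, 1.54, 2.42 and 3.43 under gastric, 3.12, -0.10 and 3.09 under duodenal and 2.18, 2.14 and 2.13 under mixed reflux. The Nrf2-/- arrays with and without reflux overlapped, and the lowest of all was Nrf2-/- duodenal replicate 2.

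Among apolipoproteins, Apoa1 and Apoa2 form high density lipoprotein and Apoc3 slows the clearance of triglyceride-rich particles. Apoa1 was -0.01, 0.06 and -0.04 in wild-type mice without reflux, 2.83, 2.10 and 1.39 under gastric, 1.46, 1.28 and 1.40 under duodenal and 0.20, 1.15 and 0.40 under mixed reflux. Nrf2-/- mice had Apoa1 at 0.08, 0.04 and 0.10 without reflux, 1.59, 1.25 and 2.60 under gastric, 2.11, 0.12 and 2.24 under duodenal and 0.06, 0.15 and 0.04 under mixed reflux. On the Nrf2-/- mixed arrays and on Nrf2-/- duodenal replicate 2 the gene was not above background, as on the Nrf2-/- arrays without reflux. Apoa2 reached 3.93 on wild-type gastric replicate 1 and 3.77 on Nrf2-/- gastric replicate 3, and Apoc3 reached 2.95 and 2.81 on the same arrays. Apoh, a phospholipid-binding plasma glycoprotein, reached 4.77 and 4.23 on them and was between -0.67 and 0.46 without reflux.

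Haptoglobin binds free haemoglobin, and hemopexin binds haem. The log2 ratio of Hp was -2.51, -2.31 and -2.46 in wild-type mice without reflux, 1.72, 0.99 and 0.36 under gastric, 0.72, 0.74 and 0.61 under duodenal and -1.15, 2.51 and -1.10 under mixed reflux. Its Nrf2-/- values were -2.41, -2.46 and -2.86, then 3.38, -0.09 and 1.39, then 3.38, 1.40 and 3.40, and 3.07, 2.99 and 3.02 in the same order of groups. Hp was above background on all 24 arrays, and unlike Alb it stayed high on the 3 Nrf2-/- mixed arrays. Hpx was between -0.75 and -0.24 without reflux and reached 4.65 on Nrf2-/- gastric replicate 1, but on the Nrf2-/- mixed arrays it was -0.42, -0.51 and -0.63, inside the range without reflux. The values of these genes on the Nrf2-/- mixed arrays thus ran apart, Hp with its duodenal level and Alb, Apoa1 and Hpx near or at the level without reflux.

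Ambp, the precursor of bikunin and of a haem-binding microglobulin, had the widest range of the secreted members over the 22 samples, 7.54 log2 units. It was 0.03, -0.19 and 1.08 in wild-type mice without reflux, 5.38, 4.29 and 3.22 under gastric, 3.59, 4.11 and 3.83 under duodenal and 1.09, 2.70 and 0.83 under mixed reflux. Nrf2-/- mice had -0.74, -1.18 and -0.06 without reflux, 6.36, 4.08 and 5.41 under gastric, 5.43, 2.18 and 5.24 under duodenal and 1.51, 1.74 and 1.68 under mixed reflux. Every Nrf2-/- reflux array was above the Nrf2-/- arrays without reflux, while in wild-type mice the mixed reflux arrays overlapped with no-reflux replicate 3. Vitronectin (Vtn), an adhesion protein of plasma and matrix, was already present without reflux, at 2.05 to 2.98, and was at 1.06 on Nrf2-/- duodenal replicate 2, its lowest value.

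The 3 fibrinogen chains, which form the clot, did not give the same picture. Fgb was -0.05, 0.00 and 1.25 in wild-type mice without reflux, 4.71, 4.20 and 3.67 under gastric, 4.10, 4.23 and 4.37 under duodenal and 2.36, 3.59 and 1.86 under mixed reflux. Nrf2-/- values of Fgb were -0.05, -0.10 and -0.07 without reflux, 6.20, 4.52 and 4.86 under gastric, 5.23, 1.63 and 5.47 under duodenal and 0.90, 0.72 and 0.77 under mixed reflux. Only wild-type no-reflux replicate 3 had Fgb above background among the 6 arrays without reflux. Fgg followed Fgb, with 2.70 on wild-type no-reflux replicate 3 and at most 0.18 on the other 5 arrays without reflux. Fga was weak, at 2.14 or less on every array.

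Prothrombin (F2), plasminogen (Plg), antithrombin (Serpinc1) and kininogen (Kng1, the source of bradykinin) complete the clotting set. F2 lay between -1.96 and -0.63 without reflux and reached 3.59 on Nrf2-/- gastric replicate 1, and Plg lay between -0.43 and 0.07 and reached 3.57 on Nrf2-/- gastric replicate 3. Serpinc1 lay between -0.28 and 0.60 without reflux and reached 4.35 on wild-type gastric replicate 1, but its other probe followed it only in part (r 0.47 over arrays). Kng1 and fetuin-A (Ahsg, an inhibitor of calcification) stood apart without reflux and are described with the genotypes. Serpina1b, an alpha-1-antitrypsin that blocks neutrophil elastase, was -0.29, 0.25 and 0.02 in wild-type mice without reflux, 4.73, 3.08 and 2.28 under gastric, 1.93, 2.12 and 2.09 under duodenal and 0.01, 0.98 and -0.07 under mixed reflux. Serpina1b in Nrf2-/- mice was -0.07, -0.01 and 0.01, then 1.03, 1.81 and 3.74, then 3.00, -0.04 and 2.95, and -0.03, 0.12 and 0.27 in the same order. No array without reflux had Serpina1b above background, nor had any Nrf2-/- mixed array, Nrf2-/- duodenal replicate 2 or wild-type mixed replicates 1 and 3.

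Heavy chains of the inter-alpha-trypsin inhibitor stabilise hyaluronan in matrix. Itih3 was between -0.26 and 0.48 without reflux and between 0.52 and 4.98 with it. Itih4 hardly moved, with the smallest range of the secreted members (0.74 log2 units over the samples). Its wild-type values were 0.61, 0.64 and 0.44 without reflux, 0.82, 0.40 and 0.49 under gastric, 0.86, 0.49 and 0.92 under duodenal and 0.97, 0.78 and 0.80 under mixed reflux. Its Nrf2-/- values were 0.64, 0.61 and 0.70, then 0.91, 1.14 and 0.85, then 0.86, 0.55 and 0.95, and 0.89, 0.89 and 0.84. The Nrf2-/- gastric arrays and the mixed arrays of both genotypes lay just above all arrays without reflux, while the wild-type gastric and both duodenal groups overlapped with them. The Nrf2-/- gastric arrays were also above the wild-type gastric arrays. Itih1 lay between -0.17 and 0.78 on 23 arrays and at 1.62 on wild-type mixed replicate 1.

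Major urinary proteins carry pheromones and are made in the liver of male mice; near-identical copies of these genes, as of the Serpina1 genes, may share a probe, so a value may belong to more than the named gene. Mup1 was 0.03, 0.01 and 1.72 in wild-type mice without reflux, 6.64, 6.31 and 5.70 under gastric, 6.47, 6.14 and 6.30 under duodenal and 3.60, 4.64 and 3.24 under mixed reflux. Mup1 in Nrf2-/- mice was -0.18, -0.21 and 0.20 without reflux, 3.61, 5.18 and 6.06 under gastric, 5.74, 1.50 and 6.07 under duodenal and 0.94, 0.72 and 0.66 under mixed reflux. Mup3 was between 0.62 and 2.09 without reflux and reached 5.37 on wild-type gastric replicate 1, and its other probe followed it in part (r 0.61).

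**Figure D2:**
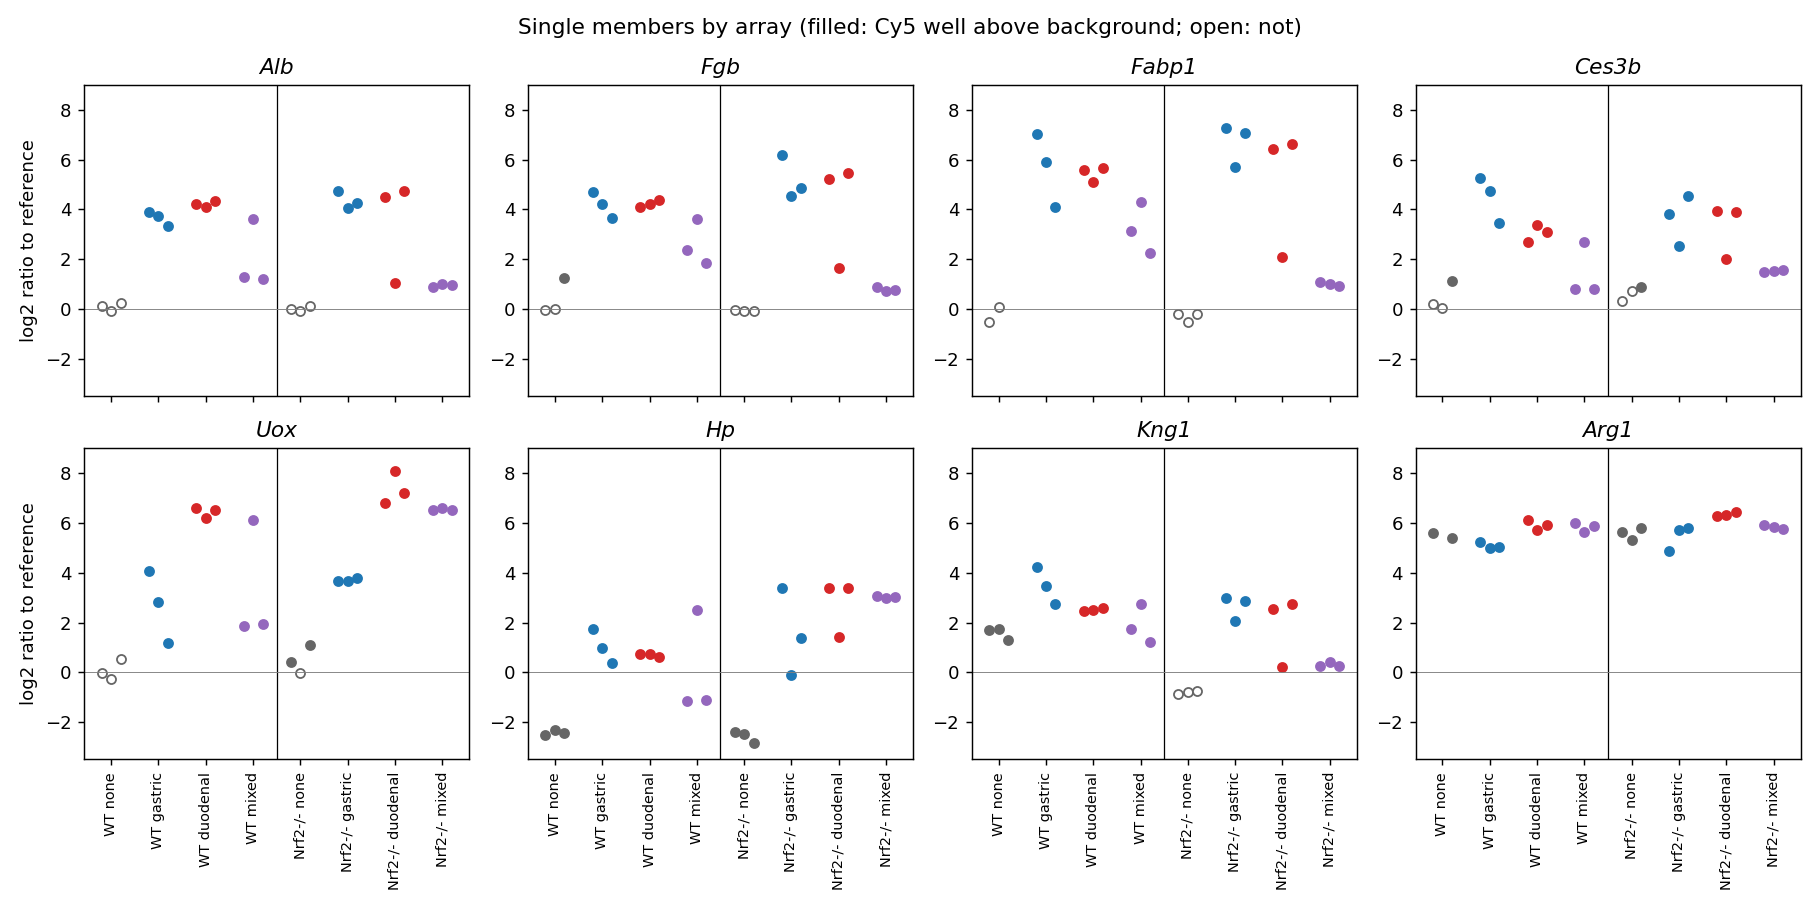
Each panel plots the log2 ratio to the reference (vertical axis) of 1 member on each array, by group (horizontal axis, wild type left of the line and Nrf2-/- right); filled points were well above background in Cy5 and open points were not. Alb, Fgb and Fabp1 lie near 1 on the Nrf2-/- mixed arrays (Alb 0.89 to 1.00), closer to the level without reflux than Uox (6.50 to 6.60) and Hp (2.99 to 3.07), and Kng1 differs between genotypes without reflux.

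Transcripts of intracellular liver proteins were detected both with and without reflux. Of the 10, 6 to 9 were above background on the reflux arrays and 3 to 7 on those without. Fabp1, the fatty acid binding protein of hepatocytes and enterocytes, was -0.54 and 0.06 in wild-type mice without reflux (replicate 3 was left out as an outlier spot), 7.03, 5.89 and 4.10 under gastric, 5.58, 5.11 and 5.66 under duodenal and 3.15, 4.29 and 2.24 under mixed reflux. Fabp1 in Nrf2-/- mice was -0.21, -0.53 and -0.19 without reflux, 7.28, 5.70 and 7.05 under gastric, 6.43, 2.09 and 6.63 under duodenal and 1.09, 0.99 and 0.92 under mixed reflux. Every reflux array was above every array without reflux that measured it. Ces3b, a carboxylesterase named Gm4738 in the files, was between 0.03 and 1.14 without reflux and between 0.79 and 5.27 with it.

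The enzymes of urea formation gave opposite pictures. Cps1, which makes carbamoyl phosphate at the start of the cycle, was -0.11, 0.16 and 0.01 in wild-type mice without reflux, 3.71, 1.38 and 0.45 under gastric, 1.06, 1.22 and 1.00 under duodenal and 0.01, 0.19 and -0.03 under mixed reflux. Cps1 in Nrf2-/- mice was -0.18, 0.09 and -0.18, then 0.92, 0.79 and 2.39, then 1.75, 0.02 and 1.85, and -0.03, -0.06 and 0.18. It was above background on all gastric arrays and on every duodenal array but Nrf2-/- replicate 2, and on no other. Arg1, which releases urea, was high everywhere: wild-type mice had 5.61 and 5.41 without reflux (replicate 2 was left out as an outlier spot), 5.24, 4.996 and 5.02 under gastric, 6.13, 5.73 and 5.93 under duodenal and 6.00, 5.64 and 5.88 under mixed reflux. Nrf2-/- mice had 5.62, 5.33 and 5.80, then 4.89, 5.73 and 5.79, then 6.27, 6.33 and 6.44, and 5.92, 5.86 and 5.75. Its values with and without reflux overlapped.

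Amino acid breakdown was represented by Tat, Hpd and Hgd of the tyrosine pathway and Tdo2 of the tryptophan pathway. Tat was 0.36, 0.48 and 0.12 in wild-type mice without reflux, 1.44, 0.84 and 0.49 under gastric, 0.58, 0.80 and 0.82 under duodenal and 0.59, 0.40 and 0.48 under mixed reflux. Tat in Nrf2-/- mice was 0.15, 0.08 and 0.40, then 2.36, 0.98 and 1.61, then 1.50, 0.84 and 1.49, and 0.43, 0.48 and 0.45. Every Nrf2-/- reflux array lay above those without reflux, the mixed ones narrowly, while the wild-type mixed arrays overlapped with those without reflux. Hpd was 0.91, 0.48 and 0.48 in wild-type mice without reflux, 1.80, 1.31 and 0.88 under gastric, 0.70, 0.69 and 1.44 under duodenal and 0.32, 1.04 and 1.26 under mixed reflux. Hpd in Nrf2-/- mice was 0.32, 0.70 and 1.87, then 0.89, 1.71 and 2.34, then 1.71, 1.05 and 1.75, and 1.51, 1.45 and 1.53. The values with and without reflux overlapped. Hgd was not above background on any of the 24 arrays and was not tested. Tdo2 had the smallest range of the intracellular members (0.74 log2 units over the samples): it was 0.35, -0.02 and 0.18 in wild-type mice without reflux, 0.54, 0.23 and 0.42 under gastric, 0.23, 0.66 and 0.42 under duodenal and 0.55, 0.24 and 0.18 under mixed reflux. Tdo2 in Nrf2-/- mice was 0.25, 0.25 and 0.51, then 0.44, 0.70 and 0.55, then 0.60, 0.17 and -0.04, and 0.49, 0.53 and 0.23. Its values with and without reflux overlapped.

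Cyp2e1 oxidises ethanol and small solvents in the liver and is also made in fat. It was 1.00, 0.19 and 0.32 in wild-type mice without reflux, 3.10, 2.78 and 2.22 under gastric, 1.58, 1.73 and 1.59 under duodenal and 0.25, 3.64 and 0.19 under mixed reflux. Cyp2e1 in Nrf2-/- mice was 1.31, 1.87 and 1.81, then 0.38, 2.03 and 3.02, then 2.38, 0.00 and 2.30, and 0.60, 0.43 and 0.45. The Nrf2-/- arrays without reflux were above the Nrf2-/- mixed arrays. A list of 6 fat genes was highest on wild-type mixed replicate 2 (median log2 ratio 4.24), Nrf2-/- gastric replicate 1 (2.04) and wild-type gastric replicate 2 (1.72), and lay between 0.05 and 0.44 without reflux. The part of fat in the values of Cyp2e1, Hp and Trf was not tested.

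Urate oxidase (Uox), a peroxisomal enzyme that degrades uric acid, had the widest range of all members, 8.36 log2 units over the samples, and its own order of groups. It was -0.05, -0.29 and 0.54 in wild-type mice without reflux, 4.05, 2.84 and 1.18 under gastric, 6.58, 6.21 and 6.51 under duodenal and 1.88, 6.13 and 1.94 under mixed reflux. Uox in Nrf2-/- mice was 0.43, -0.04 and 1.08 without reflux, 3.67, 3.67 and 3.79 under gastric, 6.79, 8.07 and 7.21 under duodenal and 6.50, 6.60 and 6.52 under mixed reflux. Duodenal arrays of both genotypes and the Nrf2-/- mixed arrays were above every gastric array. Nrf2-/- duodenal replicate 2, the array of that group on which 32 of the 35 members were lowest, had the highest Uox of all 24. Its other probe followed it over the arrays (r 0.96).

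Arrays of 1 group were often ordered alike by most members. Wild-type gastric replicate 1 was the highest of its group for 34 of the 35 members (all but Hgd), and replicate 3 was the lowest for 30. Wild-type mixed replicate 2 was the highest for 28 of 35, and Nrf2-/- duodenal replicate 2 was the lowest for 32 (all but Uox, Tdo2 and Arg1). Among the 3 wild-type arrays without reflux, replicate 3 was the highest for 17 of 33. The shares of all genes ordered in these ways were not counted, so nothing is read from these counts about the members. Over all probes, wild-type gastric replicate 1 had r 0.862 and 0.872 with the others of its group, which had 0.981 between them. For Nrf2-/- duodenal replicate 2 these values were 0.878 and 0.880, against 0.985. Over the 22 samples, 24 of the 33 members tested had r above 0.8 with the median of the secreted members. For a secreted member that median left out the member itself. The lowest were Arg1 (-0.13), Itih1 (0.13), Itih4 (0.31) and Tdo2 (0.32), and Uox stood at 0.51. These values describe samples that share groups and arrays, and carry no test.

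Secreted and intracellular members were then set side by side on each array. The median log2 ratio of the secreted members was 0.11 ± 0.19 (SD, n = 3) in wild-type mice without reflux, 2.92 ± 0.95 with gastric, 2.02 ± 0.08 with duodenal and 0.76 ± 0.63 with mixed reflux. In Nrf2-/- mice it was -0.05 ± 0.04 without reflux, 3.09 ± 0.85 with gastric, 2.31 ± 1.52 with duodenal and 0.40 with mixed reflux (1 sample). The intracellular median was 0.22 ± 0.14, 2.17 ± 1.19, 1.44 ± 0.10 and 1.02 ± 0.73 in wild-type mice and 0.39 ± 0.27, 2.07 ± 0.56, 1.70 ± 0.65 and 0.76 (1 sample) in Nrf2-/- mice, in the same order. The group means of both classes were higher under gastric and duodenal reflux than without. Taken over the 24 secreted and 9 intracellular members tested, the r of the 2 medians was 0.91 over the 22 samples. The members of both classes were chosen on reflux against no reflux, so the means and the r are descriptions and nothing is read from them. Markers of other tissues also differed between these groups. The median of 8 skeletal muscle genes was 1.16 to 2.65 in wild-type mice without reflux, 1.17, 5.21 and 5.14 under gastric and 3.46 to 3.61 under duodenal reflux, and 2.60 to 3.57 in Nrf2-/- mice without reflux against 2.66 to 5.76 under gastric and 3.78 to 4.21 under duodenal reflux. The median of 4 blood genes was 0.82 to 1.20 in wild-type mice without reflux, 1.55 to 2.09 under gastric and 1.73 to 1.99 under duodenal reflux. Over the arrays of both genotypes it was 0.82 to 1.76 without reflux and 1.34 to 3.46 with any reflux, so these ranges overlapped. Their part in the members' values was not tested.

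Against no reflux, the secreted median was higher by 2.81 with gastric, 1.91 with duodenal and 0.65 with mixed reflux in wild-type mice, and the intracellular median by 1.95, 1.22 and 0.81. In Nrf2-/- mice the differences were 3.14, 2.36 and 0.46 for secreted and 1.68, 1.30 and 0.35 for intracellular members. The sizes differed between settings. With the scanner software's processed ratios the wild-type duodenal differences were 3.45 for secreted and 4.09 for intracellular members, which turns their order, and the Nrf2-/- duodenal differences were 3.47 and 3.47. With the deposited series values the wild-type duodenal differences were 2.92 and 2.17. Without Nrf2-/- duodenal replicate 2 the secreted difference in that group was 3.24.

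**Figure D3:**
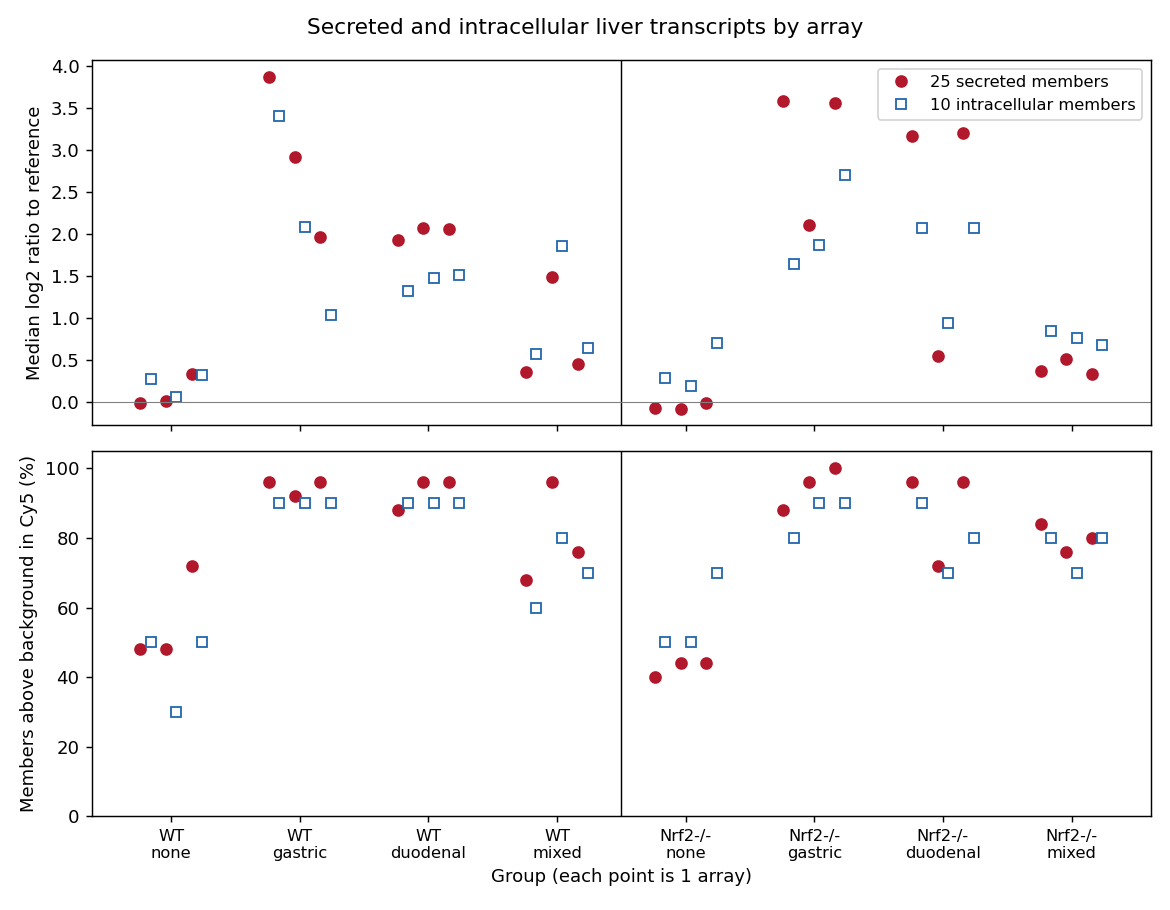
The upper panel plots the median log2 ratio to the reference of the 25 secreted (filled circles) and 10 intracellular (open squares) members on each array, by group, and the lower panel the percentage of members of each class above background in Cy5. Both medians lie between -0.08 and 0.70 without reflux and both reach over 3 on wild-type gastric replicate 1 (3.87 and 3.40); 1 array of wild-type mixed and 1 of Nrf2-/- duodenal reflux stand apart from the other two of their group.

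Slides and scan days were tied to groups, and only 2 slides held both reflux and no-reflux arrays of a genotype. Slide 2 held wild-type no-reflux replicate 3 and the 3 wild-type gastric arrays, and on it the gastric arrays were higher by 2.59 (secreted) and 1.85 (intracellular). Slide 5 held Nrf2-/- no-reflux replicate 3 and gastric replicate 1, which differed by 3.60 and 0.94. With scan day as a block the wild-type duodenal differences were 1.62 and 0.66, the wild-type mixed ones 0.37 and 0.25, and the Nrf2-/- duodenal ones 2.32 and 1.00. In every genotype comparison the 2 genotypes were on different slides, so genotype cannot be told apart from slide in any of them. Gastric arrays of the 2 genotypes also shared no scan day, so genotype cannot be told apart from day there. Without reflux, wild-type replicates 1 and 2 were on slide 1 and scan day 1, which held no Nrf2-/- array.

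In the fit across all genes, the median differences of the 33 members under gastric, duodenal and mixed reflux against none were 2.47, 1.81 and 0.58 in wild-type and 3.18, 2.32 and 0.36 in Nrf2-/- mice, beside medians between -0.03 and 0.08 over all genes. The 3 comparisons of a genotype share their controls, the members were chosen on these contrasts, and these values are a description only.

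Loss of Nrf2 is the comparison the series was designed for, and it was made within each reflux state. None of the 33 members tested passed the threshold in any of the 4 genotype comparisons (limma, adjusted p of 0.05 over all genes). Of these, Alb, Apoa2, Apoc3, Fga, Serpina1b, Plg and Cps1 were above background on no array without reflux. They entered the test through reflux groups, so for them the comparison without reflux held only dim signals and could show little. The same holds for Cps1 under mixed reflux. Among all genes, 0.17% passed without reflux, 17.7% with gastric, 1.89% with duodenal and 3.45% with mixed reflux. Those shares moved with the settings. The 3634 genes under gastric reflux came to 9 with scan day as a block, to 1 with only the groups compared and to 1035 to 5076 on leaving out each array (1035 without wild-type gastric replicate 2, 5076 without Nrf2-/- gastric replicate 1). The 388 under duodenal reflux ran from 94 to 1440 on leaving out arrays and came to 2673 with scan day as a block, and the 35 without reflux came to 3165 with local backgrounds as read. At an unadjusted p under 0.05 the members numbered 2, 3, 3 and 4 of 33, where all genes had 7.86%, 34.8%, 17.9% and 16.9%. The median difference of the members was -0.07, 0.23, 0.11 and -0.25, beside 0.03, 0.11, 0.05 and 0.00 over all genes. The median standard error of a member's difference was 0.63 in the first 3 comparisons and 0.89 in the mixed one. The p-values measure the spread between these samples, and in bulk RNA fewer cells of a type and less RNA per cell cannot be told apart.

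Kng1 had the largest genotype difference without reflux, and it is named after its values were seen. Wild-type mice without reflux had 1.71, 1.75 and 1.29, and Nrf2-/- mice had -0.88, -0.79 and -0.74 and no array above background. The groups did not overlap, and in Cy5 Kng1 was at least 4.49-fold brighter in wild-type mice, against the dimmest signal that counts as above background. The fitted difference was -2.39 ± 0.53 (SE; limma adjusted p = 0.118 over all genes). Over 36 alternatives the adjusted p ran from 0.00112 to 1, and 5 of them passed the threshold. The difference itself ran from -4.83 to -1.28 over these alternatives. The fit used the brighter of 2 Kng1 probes. The other probe had a median of 0.42 with reflux and -0.03 without, against 2.53 and 0.28 for the one used. It followed the probe used with r 0.83 over arrays, and its own genotype difference was not fitted. Under gastric reflux Kng1 was 4.24, 3.46 and 2.76 in wild-type and 2.97, 2.06 and 2.85 in Nrf2-/- mice, and under duodenal reflux 2.44, 2.51 and 2.57 against 2.55, 0.19 and 2.76. Under mixed reflux it was 1.76, 2.73 and 1.21 against 0.27, 0.40 and 0.25. The gastric and duodenal groups overlapped between genotypes, and the mixed groups did not.

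Ahsg showed the same split without reflux, with 2.19, 1.09 and 2.33 in wild-type and -0.09, -0.06 and 0.08 in Nrf2-/- mice. The difference was -1.89 ± 0.50 (limma adjusted p = 0.245; from 0.0072 to 1 over 36 alternatives, 2 of which passed). Under gastric reflux Ahsg was 4.74, 3.76 and 3.57 against 5.94, 4.43 and 4.88, under duodenal reflux 4.31, 4.39 and 4.49 against 4.85, 2.84 and 4.98, and under mixed reflux 3.08, 3.58 and 2.73 against 2.47, 2.40 and 2.42. Its gastric reflux difference was 2.15 ± 0.50 in wild-type mice and larger in Nrf2-/- mice by 2.95 ± 0.71, a test of the difference itself that passed the threshold (limma adjusted p = 0.0461 over all genes, 367 of which passed). That 2.95 holds the genotype difference of -1.89 without reflux beside 1.06 under gastric reflux. It is built from reflux differences on which the members were chosen, and Ahsg was picked after its values were seen. The adjusted p is therefore no independent support. The call was lost in 23 of 35 alternatives, with adjusted p from 0.00897 to 0.442, so it rests on the setting; the difference lay between 1.70 and 3.91 in all of them. No other member passed in the gastric, duodenal or mixed tests of this kind.

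Under gastric reflux the smallest adjusted p of a member was that of Itih4, 0.0704, for a difference of 0.40 ± 0.15, and Tat followed with 0.73 ± 0.28 (adjusted p = 0.0828, limma). Without wild-type gastric replicate 1 both passed (0.0237 and 0.0244). The difference of Alb was 0.70 ± 0.71 (limma adjusted p = 0.507) and that of Fabp1 1.00 ± 0.95 (0.473), each close to its standard error. Under duodenal reflux the difference of Mup3 was -1.50 ± 0.55 (limma adjusted p = 0.167), that of Mup1 was -1.87 ± 0.88 (0.279) and that of Hp 2.04 ± 0.86 (0.228). All 3 arrays of Nrf2-/- duodenal reflux had Hp above the wild-type duodenal arrays.

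Mixed reflux gave the widest genotype differences, and the least certain, since the Nrf2-/- group counted as 1 sample. It also sets the group labelled oesophageal epithelium against one labelled whole oesophagus. Of 6 smooth muscle genes tested, 2 passed as lower in Nrf2-/- mice in this comparison, Cnn1 at -2.41 ± 0.40 (limma adjusted p = 0.00349) and Tagln at -2.33 ± 0.43 (0.00694), with 3.45% of all genes called. The summed Cy5 level of these 6 genes was 246762 to 407742 on the wild-type and 69340 to 75516 on the Nrf2-/- mixed arrays, and the part of muscle content in the members' differences was not tested. Among the members the fitted difference was 3.22 ± 1.20 for Uox (limma adjusted p = 0.167), 2.94 ± 1.22 for Hp (0.222) and -3.05 ± 1.25 for Mup1 (0.217). The wild-type side was itself split, with replicate 2 near the Nrf2-/- values for Uox (6.13) and Hp (2.51) and replicates 1 and 3 far below. With the 3 Nrf2-/- arrays counted as 3 samples, Uox (adjusted p = 0.00778), Mup1 (0.0141), Hp (0.0149) and Kng1 (0.0298) passed. Without wild-type mixed replicate 2, Uox (0.00187) and Hp (0.0203) passed. Over all 36 alternatives the adjusted p ran up to 0.427 for Uox, 0.468 for Hp, 0.572 for Mup1 and 0.437 for Kng1.

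**Figure D4:**
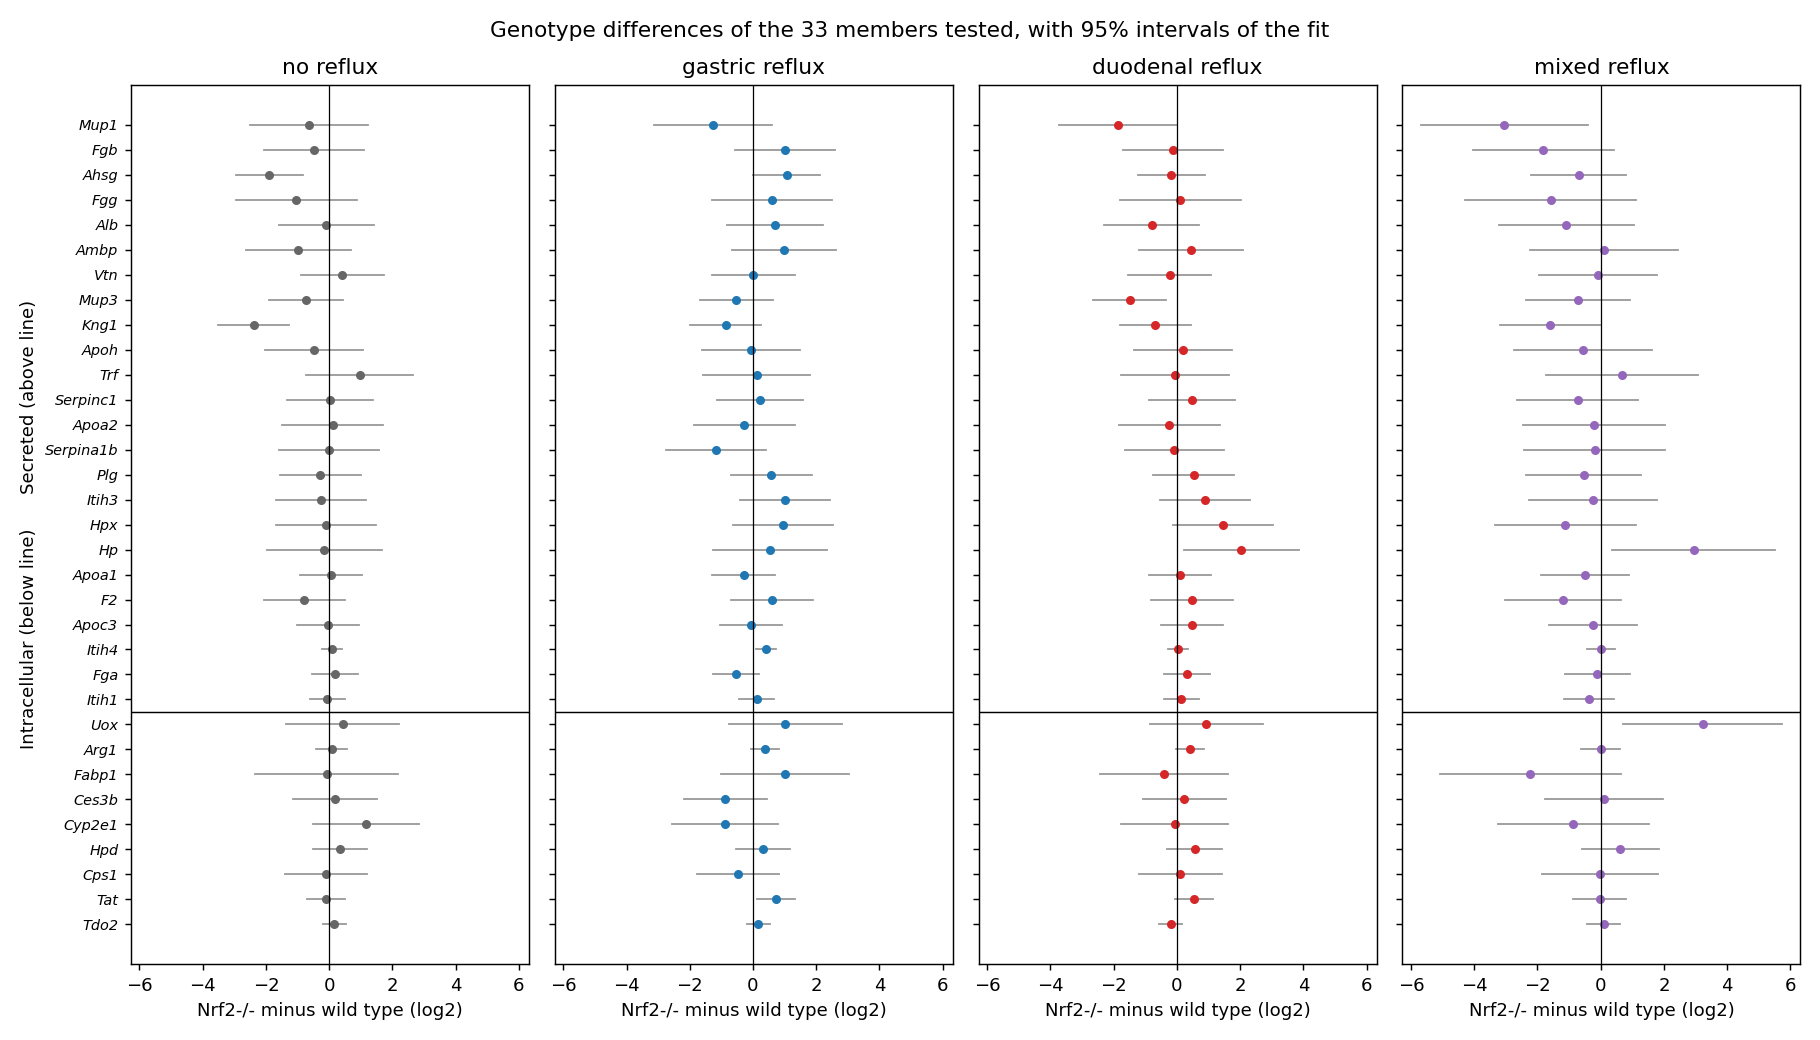
Points give the log2 difference, Nrf2-/- minus wild type (horizontal axis), of the 33 members tested (vertical axis) in each reflux state, with the 95% interval of the fit as a line. Most intervals hold 0; Uox (3.22), Mup1 (-3.05) and Hp (2.94) under mixed reflux and Kng1 (-2.39) without reflux lie farthest from it.

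Some other liver genes were high on the same arrays as the members, and others were not. Of 22 hepatocyte surface proteins and factors, 11 to 15 were above background without reflux and 13 to 21 with it, with medians by array of -0.05 to 0.01 and 0.15 to 0.84. For 7 genes of other liver cells the counts were 4 to 6 and 5 to 7, and the medians 0.04 to 0.47 and 0.16 to 1.04. Agxt, which detoxifies glyoxylate, was between -0.31 and 0.03 without reflux, 3.52, 2.29 and 0.98 in wild-type gastric reflux, 5.06, 2.33 and 3.71 in Nrf2-/- gastric reflux and 3.47, 0.24 and 3.31 in Nrf2-/- duodenal reflux. The hepatocyte bile acid uptake carrier Slco1b2 was 3.64, 2.61 and 1.88 in wild-type gastric reflux, highest on replicate 1. Slc27a5, which activates bile acids, was between -0.36 and 0.05 without reflux and reached 2.55 on the same array. By contrast the hepatocyte receptor Asgr1 lay between -1.57 and -0.02 and the liver factor Hnf4a between 0.01 and 1.43 on all arrays. The Kupffer cell lectin Clec4f was above background on wild-type gastric replicate 1 (1.09), wild-type mixed replicate 2 (0.28), Nrf2-/- gastric replicates 1 and 3 (1.15 and 0.85) and Nrf2-/- duodenal replicates 1 and 3 (0.86 and 0.64), and on no other array.

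Of 39 further secreted liver genes, 17 to 24 were above background without reflux and 21 to 38 with it, and their median log2 ratio ranged from -0.14 to 0.16 and from 0.05 to 2.46. For 44 further intracellular liver genes the counts were 22 to 28 and 21 to 41, and the medians 0.10 to 0.27 and 0.19 to 1.38. Markers of neighbouring organs reached lower medians with reflux: 13 intestinal genes ranged from -0.05 to 0.18 without and from -0.11 to 0.34 with reflux, 9 stomach genes from 0.07 to 0.28 and from 0.03 to 0.37, and 11 pancreatic genes from -0.08 to 0.08 and from -0.04 to 0.38. Wild-type no-reflux replicate 3 had the highest pancreatic levels, with Cpa1 at 4.38, Cela3b at 3.76 and Cpb1 at 3.80, against at most 1.15 on any other array for these 3 genes. On that array the liver genes Fgg (2.70), Mup1 (1.72) and Serpina1d (3.36) were also above the other arrays without reflux. The summed Cy5 level of the 11 pancreatic genes ran from 1627 to 7487 without reflux and from 1622 to 3246 with it. The part that liver tissue taken with the oesophagus had in the members' values was not tested.

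In the genotype comparisons 111 liver genes outside the list were tested, in 5 lists that also hold acute-phase and non-parenchymal genes. Of these, 0% passed without reflux (0.17% of all genes), 12.6% under gastric (14 genes; 17.7% of all), 1.8% under duodenal (2 genes; 1.89%) and 2.7% under mixed reflux (3 genes; 3.45%), so the shares lay near or below those over all genes. The wild-type gastric arrays were on slide 2 and scan day 2, and the Nrf2-/- ones on slides 5 and 6 and scan day 3. Genotype therefore cannot be told apart from slide or day in the gastric comparison, nor from slide in the others. With scan day as a block, or with only the groups compared, 0 of these liver genes passed under gastric reflux. In the main fit Apoc2, an activator of lipoprotein lipase, was higher in Nrf2-/- mice under gastric reflux by 1.12 ± 0.37 (limma adjusted p = 0.0453). Ceruloplasmin (Cp) was lower there, at -0.50 ± 0.17 (0.0457). Gls2, the liver glutaminase, rose by 1.35 ± 0.31 (0.0104) and Ugt2b5 fell by 1.14 ± 0.29 (0.0154). The lymphatic and sinusoidal receptor Lyve1 differed by -2.85 ± 0.80 (0.0242) and the matrix proteoglycan Dcn by -2.39 ± 0.70 (0.0315). Hamp2, a hepcidin gene, was higher under gastric (1.07 ± 0.16, 0.00132) and duodenal reflux (0.78 ± 0.16, 0.0179). Under mixed reflux, where 1 Nrf2-/- sample was set against 3 and its spread was taken from the other groups, the acute-phase gene Lcn2 was higher by 2.33 ± 0.62 (0.0479) and Gls2 by 1.65 ± 0.44 (0.0496), and Cyp2a5 was lower, at -1.89 ± 0.42 (0.0220). Without wild-type gastric replicate 2 the gastric count was 1, without replicate 3 it was 2, and without replicate 1 it was 24.

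The genes whose pattern over the 22 samples was most like that of the intracellular members were found by correlation with the mean of the 7 intracellular members used, among 15358 genes measured on all samples. The first 15 had r from 0.96 down to 0.87. Of these, 6 were in a liver list: Serpina3m (0.96), Serpind1 (0.93), Gc (0.90), Serpina3k (0.89), Slc27a5 (0.88) and Slco1b2 (0.87). The other 9 were Cyp2d26, Akr1c6, Cyp3a41a, Gimap1, Mtarc1, Apon, Elovl3, Mug1 and Ighm. The samples share groups and reflux state, so these values describe the arrays and carry no test.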

How the data were processed

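RNA of 24 oesophagus samples had been hybridised to Agilent 2-colour arrays and, per the file headers, read with Agilent Feature Extraction 10.5.1.1 or 10.7.3.1 (the submitters' processing notes give 9.1). The deposited scanner files hold the intensity of each spot in both channels and a log10 ratio of Cy5 over Cy3, and the authors' series values are log2 ratios (slope 2.68 to 3.14 against the log10 ratio, medians 0 to 0.069), which served as an alternative; the sources used here do not say how the authors normalized them.

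From the deposited mean and background intensities, ratios were computed with limma 3.58.1 in R 4.3.3: normexp background correction with an offset of 50, loess within arrays, control spots at weight 0, outlier spots left out, and local backgrounds flagged as outliers replaced by the array's median. Repeat spots were averaged and a gene was represented by its brightest probe. Names came from accessions through the RefSeq gene table for 33 of the 35 members, and 7 members had several probes. A gene was tested if a probe was well above background on all arrays of a group: 33 members and 20565 genes in all. Group means were fitted to 22 samples with lmFit and eBayes (14 residual degrees of freedom), with Benjamini-Hochberg adjustment over all genes. The fit was tested on simulated data. Arrays carry no count, so precision is limited by their number.

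The members, the gene lists and the tests were chosen with earlier results of these data known. Values by array are given for 15 members set by role and for those with the widest and narrowest ranges; other genes are those past the threshold, at most 3 a list, markers a result stands beside, and the 15 most alike in pattern. Kng1 and Ahsg were named after their values were seen. Alternatives were processed or series ratios, other background, centring, outlier, filter, probe and detection choices, replicate number, scan day or slide as a block, 3 samples for Nrf2-/- mixed reflux, only the groups compared, and leaving out each array. Protein sequences were not used here.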

Additional observations from a re-analysis of the deposited data

Results flagged for a closer look

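The fitted gastric reflux difference of Ahsg differed between genotypes: it was larger in Nrf2-/- than in wild-type mice by 2.95 ± 0.71 log2 units (limma adjusted p = 0.0461 over all genes tested). The adjusted p was 0.442 with scan day as a block, 0.05001 with the replicate number as a block and 0.00897 without wild-type gastric replicate 1. All 3 arrays of each genotype were higher under gastric reflux than without, so the difference is of size. It holds the genotype difference of -1.89 without reflux beside 1.06 under gastric reflux. Ahsg was picked after its values were seen, on contrasts that chose the members, so the adjusted p is no independent support.

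The mixed reflux differences of Serpinc1 had opposite signs in the genotypes: 0.54 in wild-type mice, with 0.25, 1.35 and 0.26 against -0.09, -0.28 and 0.60 without reflux, and -0.22 in Nrf2-/- mice, with -0.16, -0.06 and -0.10 against 0.23, 0.10 and -0.01. The wild-type groups overlapped, the Nrf2-/- mixed group counted as 1 sample, and the test of the difference did not pass the threshold (-0.76 ± 1.11, limma adjusted p = 0.883).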

How the results depend on the processing

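The Ahsg test, the only call followed gene by gene, kept its sign under every alternative. Liver genes outside the list were followed only as counts, so the directions of their calls were not checked. The members passing the threshold, 0 in each genotype comparison (no reflux, gastric, duodenal, mixed), numbered 2, 1, 1 and 0 with the scanner software's processed ratios and 2, 1, 1 and 0 with the deposited series values. They numbered 1 without reflux with local backgrounds as read (Arg1), 1, 1, 0 and 4 with Nrf2-/- mixed reflux as 3 samples, and 1 without reflux when only the groups compared were fitted (Kng1). Leaving out each array gave 0 to 1, 0 to 2, 0 and 0 to 2. The liver genes outside the list (0, 14, 2 and 3) came to 7, 1 and 1 under gastric, duodenal and mixed reflux with processed ratios, 5 and 0 under gastric and duodenal reflux with median centring, and 9 and 0 under gastric and mixed reflux with series values. With local backgrounds as read they were 15 without and 1 under mixed reflux. With no filter on dim probes they were 1 under mixed reflux, with scan day as a block 0 under gastric and 15 under duodenal, and with slide as a random block 6, 0 and 1. With 3 Nrf2-/- mixed samples they were 7 under duodenal and 17 under mixed reflux, and with only the groups compared 0, 5 and 0. Leaving out each array gave 1 to 24, 0 to 11 and 0 to 8, the extremes without wild-type gastric replicates 2 and 1, wild-type duodenal replicate 1 and Nrf2-/- gastric replicate 1, and wild-type mixed replicates 1 and 2.

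Against no reflux, the class medians with processed ratios were 3.90 (secreted) and 3.43 (intracellular) higher under wild-type gastric, 3.45 and 4.09 under wild-type duodenal, 4.52 and 3.44 under Nrf2-/- gastric and 3.47 and 3.47 under Nrf2-/- duodenal reflux, and the intracellular median was 1.48 and 1.73 higher under wild-type and Nrf2-/- mixed reflux; the intracellular genotype difference under mixed reflux was 0.63. With series values the intracellular median was 2.88 higher under wild-type gastric reflux, and both were 2.92 and 2.17 higher under wild-type duodenal, 4.42 and 2.94 under Nrf2-/- gastric and 3.26 and 2.53 under Nrf2-/- duodenal reflux. With median centring the wild-type duodenal secreted difference was 1.07. The secreted minus the intracellular median, 0.49 over reflux samples and -0.28 over those without, was -0.53 and -0.65 with processed ratios and -0.20 and -0.87 with series values, so its sign under reflux depends on the processing. Leaving out arrays gave 1.92 to 3.24 for the Nrf2-/- duodenal secreted difference and -0.16 to 1.17 for its genotype difference, the upper values without Nrf2-/- duodenal replicate 2. With a looser detection call the median number of members above background without reflux was 26 in wild-type and 25 in Nrf2-/- mice, in place of 17 and 16. The causes were not tested.

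Replicate numbers did not pair the samples: same-numbered samples of different groups deviated together with r of -0.33 to 0.05 over 9 pairs. With the replicate block 0 members were called in all 4 genotype comparisons, 1 liver gene outside the list was called under mixed reflux, and the Ahsg test had an adjusted p of 0.05001 (limma); the alternatives of that test were chosen after seeing the data. Dim signals limit the members most, since many were not above background without reflux.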
